A study of Homo sapiens with 2 samples.

Results

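The genes described here are 10 Wnt ligands that form 5 pairs of close paralogs: WNT2 and WNT2B, WNT3 and WNT3A, WNT7B and WNT7A, WNT8A and WNT8B, and WNT10A and WNT10B. They were picked by gene symbol from the 113 pathway genes of a membrane array for human Wnt signalling. All 10 symbols were on the array, each with 1 spot. RNA came from SW480, a human colorectal adenocarcinoma cell line, in 2 stable lines. The hiNOS line overexpressed an inducible nitric oxide synthase, the enzyme that makes nitric oxide, together with green fluorescent protein (GFP). The GFP line carried the empty vector with GFP alone, so both lines share the GFP marker and both were sorted on it and grown for weeks before RNA was taken. The files used here hold 1 array per line. More than 1 RNA preparation, each assayed repeatedly, is mentioned in the series text, and whether these values stand for 1 of them or more is not given in the sources used here. No value therefore has a replicate, no test between the lines was possible, and each difference describes these 2 arrays. Neither NOS2 nor any of 6 colon epithelial markers sought (CDX2, KRT20, VIL1, EPCAM, CDH1 and LGR5) was on the array, so the cell type and the overexpression could not be checked here.

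Wnt ligands are secreted, lipid-modified glycoproteins. They bind Frizzled receptors and LRP co-receptors, and in the canonical branch this stops the degradation of beta-catenin, which then activates target genes with TCF/LEF factors. In the intestinal crypt Wnt signals keep stem cells dividing. SW480 cells carry a truncated APC protein, so beta-catenin is stabilised in them below the level of the ligands. The paralogs of a pair are similar in protein sequence, but all 5 pairs have their members on different chromosomes in RefSeq. Probe sequences were not used here, so whether a spot also captured its paralog was not tested.

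The value of a spot is its average density in scanner units, with no background removed. The 2 blank spots had 11708 and 12964 units on the hiNOS array, against 12722 and 12779 units on the GFP array. The 6 negative-control spots, which are the blanks, a plasmid and 3 artificial sequences, averaged 12187 ± 740 units on the hiNOS array and 12354 ± 328 units on the GFP array (SD over 6 spots of 1 array). The brightest of them had 13214 units with hiNOS and 12779 units with GFP. The authors' software called 51 of 113 genes (45.1%) present on the hiNOS array and 53 (46.9%) on the GFP array. The dimmest gene called present had 18525 units with hiNOS and 18982 units with GFP. A biotinylated positive control averaged 49565 units with hiNOS and 50047 units with GFP, and spots at 90% of it or more are called near the ceiling here. Duplicate spots printed on the same array differed by 0.81% to 0.979% with hiNOS and by 1.33% to 1.67% with GFP at that bright end. At the dark end the duplicate blanks differed by 10.2% with hiNOS and by 0.448% with GFP.

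In 4 of the 5 pairs, 1 paralog was called present on both arrays and the other was called absent on both. WNT2, WNT3, WNT7B and WNT10A were the present members, and WNT2B, WNT3A, WNT7A and WNT10B were the absent ones. The WNT8 pair was the exception, with both members present on both arrays. The 6 present genes were the same on the hiNOS and the GFP array. A share of 60.0% present on each array stands beside 45.1% with hiNOS and 46.9% with GFP over all genes, which for a group of 10 is read as near the background. Brightness was read only against the blanks and controls of the same array, since the spots of different genes cannot be ranked by density.

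**Figure D1:**
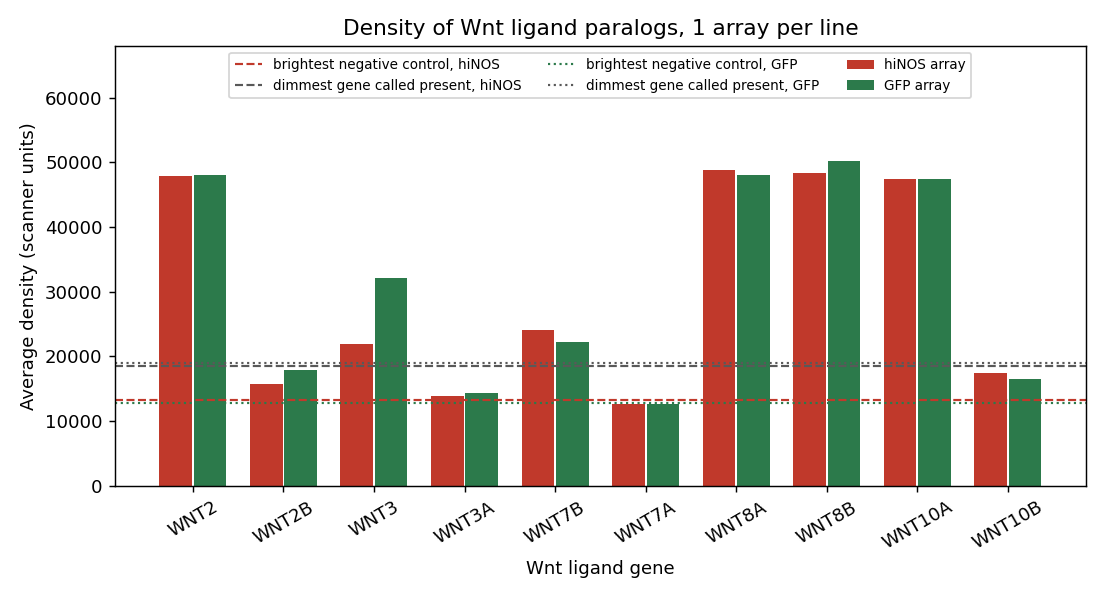
Average density in scanner units (vertical axis, from 0) of the 10 paralogs on the hiNOS array (red bars) and the GFP array (green bars), 1 spot each, with no error bars because there is 1 array per line. Coloured lines mark the brightest negative control of each array, and grey lines the dimmest gene called present. WNT2, WNT8A, WNT8B and WNT10A lie between 47381 and 50179 units, and WNT3 is the member with the widest gap between the arrays.

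The WNT2 pair set a spot near the top of the range beside one called absent. WNT2, whose transcript is known to be raised in colorectal tumours, had 47945 units with hiNOS and 48045 units with GFP. That was 96.7% of the positive control with hiNOS and 96.0% with GFP, so the spot lay near the ceiling on both arrays. WNT2B, a ligand with a role in lung specification in the mouse, had 15784 units with hiNOS and 17897 units with GFP and was called absent on both. It was nonetheless above every negative control, by 4.86 SDs of those controls over their mean with hiNOS and by 16.9 SDs with GFP. The SD differs between the arrays, 740 units with hiNOS and 328 units with GFP, so these multiples do not compare them. The difference of WNT2B was -2113 units hiNOS minus GFP. That was outside the range of the negative controls, which ran from -1014 to 878 units. No fold is given for a gene absent on both arrays.

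The WNT3 pair held the member that differed most between the lines. WNT3, which Paneth cells of the mouse crypt supply to intestinal stem cells, had 21952 units with hiNOS and 32175 units with GFP, and was present on both. WNT3A, a strong activator of the canonical branch, had 13821 units with hiNOS and 14335 units with GFP, and was absent on both. Above the blank mean, WNT3A had 1485 units with hiNOS and 1585 units with GFP. Its spot was brighter than every negative control on each array but its difference of -514 units lay within their range.

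The WNT7 pair was the one with a member at the level of the blanks. WNT7B, a ligand with roles in lung growth and brain vessels in the mouse, had 24051 units with hiNOS and 22245 units with GFP. WNT7A, which sets the dorsal side of the limb in the mouse, had 12572 units with hiNOS and 12657 units with GFP. WNT7A was the only one of the 10 that did not exceed every negative control, being 236 units above the blank mean with hiNOS and -92.8 units relative to it with GFP. The authors' deposited table lists WNT7A, marked as absent on both arrays, among 23 under-expressed genes with a ratio of -2.68 for hiNOS over GFP. That sign comes from a density under the blanks on the GFP array, and no other of the 10 genes is in that table.

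Both members of the WNT8 pair, ligands known for early axis and brain patterning in vertebrate embryos, lay near the ceiling on both arrays. WNT8A had 48859 units with hiNOS and 48095 units with GFP. WNT8B had 48295 units with hiNOS and 50179 units with GFP. The differences in density, hiNOS minus GFP, were 764 units for WNT8A and -1885 units for WNT8B. The range of the 19 genes near the ceiling on both arrays was -0.05 to 0.06 in the log2 ratio of density. WNT8A was at 0.03 and WNT8B at -0.05. The 19 genes include both, and WNT8B itself sets the low end. Whether film or scanner could register a larger difference at this brightness was not tested.

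In the WNT10 pair the A member was bright and the B member dim. WNT10A, in which human mutations affect teeth, hair and sweat glands, had 47381 units with hiNOS and 47417 units with GFP, a difference of -35.7 units. WNT10B, which favours bone formation over fat cells in the mouse, had 17426 units with hiNOS and 16498 units with GFP and was absent on both arrays. It exceeded the mean of the negative controls by 7.08 of their SDs with hiNOS and by 12.6 with GFP. The SD was 740 units with hiNOS and 328 units with GFP, so these multiples do not compare the arrays. The difference of WNT10B, 928 units, was just outside the range of the negative controls. It was smaller than the 1256 units between the 2 blanks of the hiNOS array.

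The absent paralogs were dim, yet mostly above background. Of the 4 absent on both arrays, 3 (WNT2B, WNT3A and WNT10B) were brighter than every negative control on both arrays. Over all genes absent on both arrays this held for 12 of 54 (22.2%), and those 12 include the 3. Of the other 9 Wnt ligands, 4 were absent on both arrays (WNT4, WNT9A, WNT9B and WNT11), and 0 of these were above every negative control on both. Counted by the brightest negative control in place of the authors' call, 9 of the 10 paralogs stood above background on each array, beside 62.8% of all genes with hiNOS and 72.6% with GFP. With the blank mean plus 3 SDs of the negative controls it was 8 with hiNOS, without WNT3A and WNT7A, and 9 with GFP, beside 56.6% of all genes with hiNOS and 64.6% with GFP. With 1.5 times the blank mean, a factor shared with the authors' call, it was 6 on each array, beside 45.1% with hiNOS and 46% with GFP.

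Some of the dim spots follow a bright spot in position number. By position number, WNT2B (102) and WNT10B (98) come directly after WNT2 (101) and WNT10A (97), which lay near the ceiling. WNT3A (104) lies between WNT3 (103) and WNT4 (105), neither of them near the ceiling. WNT7A (109), at the level of the blanks, comes directly after WNT6 (108). WNT6 had 48002 units with hiNOS and 49751 units with GFP and was called bleeding on both arrays. None of the 10 paralogs was called bleeding on either array. The physical layout of the spots was not used here, and the part of neighbouring spots or of the paralog's own RNA in the dim signals was not tested.

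Between the lines, WNT3 was lower with hiNOS and the other 5 present paralogs differed little. Of those 5, 4 lay near the ceiling, where a larger difference may not register. After subtraction of the blank mean, WNT3 had 9616 units with hiNOS and 19425 units with GFP. Those values were 26.4% of the GAPDH and ACTB signal with hiNOS and 53.6% with GFP. On this scale WNT3 was 2.03-fold lower with hiNOS, a log2 ratio of -1.02. The GAPDH and ACTB spots that set the scale averaged 48775 units with hiNOS and 49004 units with GFP. That mean is itself near the ceiling, and whether it could register a difference in RNA amount was not tested. The difference in density of WNT3 was -10223 units, 10.1 times the widest shift of a negative control. Those controls are dark spots, and their shifts do not give the spread of a spot as bright as WNT3. By density alone, which the blanks compress, WNT3 was 1.46-fold lower. Whether fewer cells held the transcript or each cell held less of it cannot be told apart.

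The 2-fold mark falls within the uncertainty of WNT3. With the dimmer blank of each array subtracted it was 1.94-fold lower and with the brighter blank 2.13-fold lower. On the deposited values, which were scaled to the middle of all spots, it was 1.93-fold lower and fell short of 2-fold. WNT3 was lower with hiNOS under all 12 settings that could change its ratio, the main one included, between 1.46-fold and 2.13-fold. These settings reprocess the same 2 densities, so their shared direction is not independent support. No replicate shows how far such a value varies between cultures of 1 line.

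WNT7B was the other present paralog below the ceiling. It had 11715 units above the blanks with hiNOS and 9495 units with GFP, which is 1.23-fold higher after scaling, a log2 ratio of 0.30. By density it was 1.09-fold higher, with a log2 ratio of 0.12, while the negative controls ran from -0.11 to 0.11 on that scale. It was higher in all 12 settings that could change its ratio, from 1.09-fold to 1.54-fold, and in 0 of them 2-fold. These too reprocess the same 2 densities. On these 2 arrays WNT3 was lower and WNT7B slightly higher with hiNOS. By density WNT7B lay only just past the negative controls, so no direction between the lines is given for it.

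The 4 paralogs near the ceiling had log2 ratios after blank subtraction of 0.01 for WNT2, 0.04 for WNT8A, -0.07 for WNT8B and 0.01 for WNT10A. The sign of WNT2 and WNT10A turned when GAPDH alone set the scale, that of WNT10A also with quantile normalization, and that of WNT8B with the deposited values and with the median gene as the scale. No direction is given for these 3 genes. WNT8A was positive in all 12 settings that could change its ratio, which reprocess the same densities. It lay within the spread of the bright spots, which include WNT8A itself.

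By the rule of 2-fold after blank subtraction, 0 of the 6 present paralogs were higher with hiNOS, beside 5.08% of the 59 genes present on at least 1 array. On the lower side it was 1 of 6, WNT3, beside 10.2% (6 of 59, where a gene absent on 1 array counts only if its bound passes). A count of 1 in 6 is near that share and is no result about the paralogs as a group. By density 0 of 6 were 2-fold in either direction, as were 0 of 59 genes. The median log2 ratio after blank subtraction was 0.01 over the 6 paralogs and -0.01 over the 59 genes. Of the 6 paralogs, 4 lay near the ceiling, so their median mostly describes bright spots. Of the 45 genes present on both arrays, whose ratios were measured on both sides, 2 (APC2 and CSNK1A1) had a lower ratio than WNT3.

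**Figure D2:**
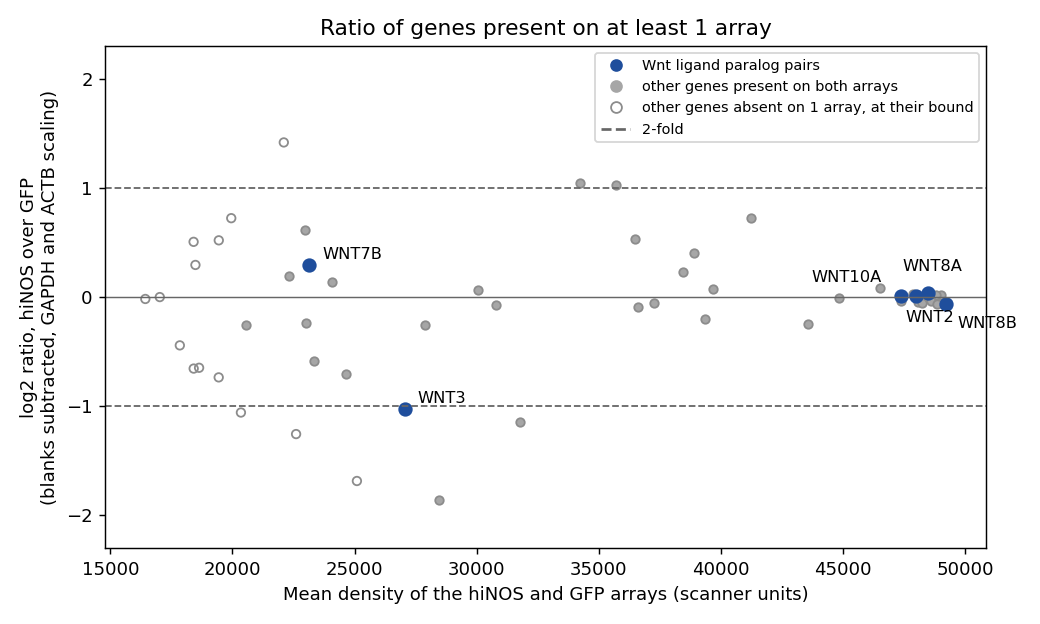
Log2 ratio of hiNOS over GFP after blank subtraction and scaling to GAPDH and ACTB (vertical axis) against the mean density of both arrays in scanner units (horizontal axis), for the 59 genes present on at least 1 array. Blue points are the paralogs, grey points other genes, open points genes absent on 1 array placed at their bound, and dashed lines mark 2-fold. WNT3 lies at -1.02, WNT7B at 0.30, and the 4 bright paralogs lie between -0.07 and 0.04 at the right edge.

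The genes whose spots lay nearest to WNT3 in both densities, by Euclidean distance of log2 density above the blanks among 69 genes outside the pairs, were DKK4 (0.38) and CSNK1A1 (0.55). DKK4, a secreted antagonist of LRP co-receptors, had 21559 units with hiNOS and 27749 units with GFP and was 1.63-fold lower. CSNK1A1, a kinase that primes beta-catenin for degradation, had 24344 units with hiNOS and 39171 units with GFP and was 2.21-fold lower. Those nearest to WNT7B were the transcription factor gene TCF7 (0.18) and the scaffold gene AXIN1 (0.21). TCF7 had 22759 units with hiNOS and 21845 units with GFP, and AXIN1 had 24444 units with hiNOS and 23687 units with GFP. Each distance rests on 2 values per gene and holds the brightness of different probes, so it describes spots and not a likeness of expression.

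Among the other 9 Wnt ligands, 4 were present with hiNOS and 5 with GFP. WNT5A, a ligand that mostly acts outside the beta-catenin branch, was absent with hiNOS at 15127 units and present with GFP at 25564 units. At its bound it was 2.08-fold lower after blank subtraction, and was the 1 ligand of these 9 past 2-fold. By density the bound was 1.37-fold, so passing the 2-fold mark depends on the processing for WNT5A too. WNT1, the first mammalian Wnt gene found, had 21981 units with hiNOS and 24065 units with GFP and was 1.18-fold lower. WNT5B, WNT6 and WNT16 had 44661 to 48002 units with hiNOS and 45039 to 49751 units with GFP.

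**Figure D3:**
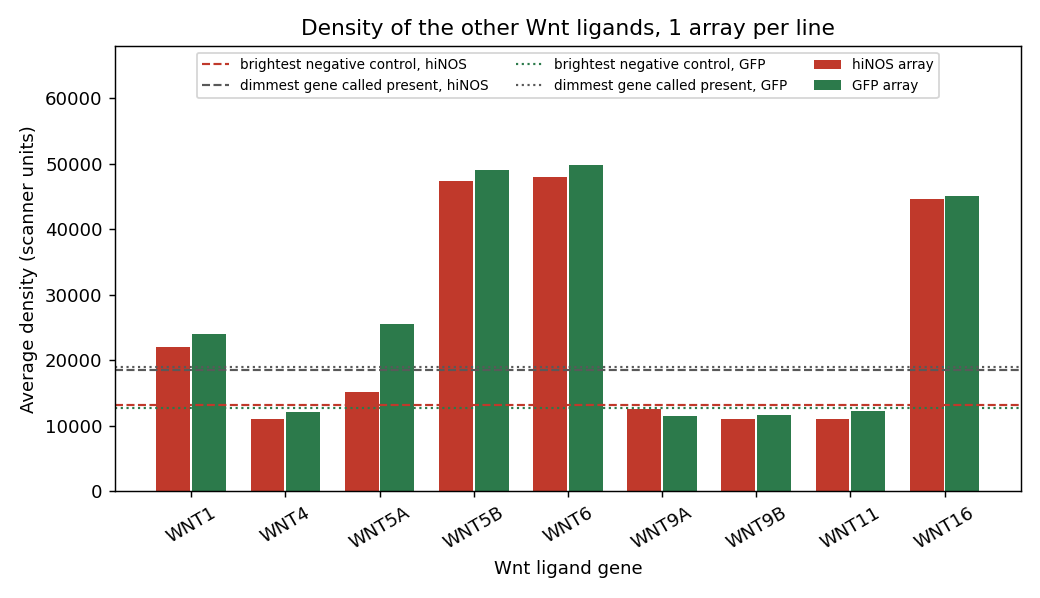
Average density in scanner units (vertical axis, from 0) of the 9 Wnt ligands outside the pairs on the hiNOS array (red) and the GFP array (green), 1 spot each, with the same reference lines for the brightest negative control and the dimmest present gene. WNT5A crosses the present line between the arrays, at 15127 units with hiNOS and 25564 units with GFP, and WNT4, WNT9A, WNT9B and WNT11 stay under the brightest negative control of their array.

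Of the genes that act with the ligands, PORCN, which encodes the enzyme that attaches the lipid to Wnt proteins, was absent with 11344 units on the hiNOS array and 11779 units on the GFP array. Of the 12 Frizzled and LRP receptor genes, 4 were present with hiNOS and 3 with GFP, and 0 were 2-fold higher or lower, with FZD10, absent with GFP, at its bound. Of 11 genes for secreted inhibitors and Kremen receptors on the array, 5 were present with hiNOS and 6 with GFP, and 0 were 2-fold in either direction when genes absent on 1 array were held to their bounds. FRZB, a secreted Frizzled-related antagonist, was absent with hiNOS at 14870 units and present with GFP at 22395 units. It was at least 1.57-fold lower, so a difference of 2-fold or more is not excluded for it.

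Several paralogs lie beside another Wnt ligand in the genome, and the calls of such neighbours matched in some cases and differed in others. In RefSeq on GRCh38.p14, WNT10A on chromosome 2 is next to WNT6, and both were near the ceiling. WNT10B on chromosome 12 is next to WNT1, which was present on both arrays while WNT10B was absent. WNT3 on chromosome 17 is next to WNT9B, which had 11015 units with hiNOS and 11651 units with GFP, under the blank mean of each array. WNT3A on chromosome 1 is separated from WNT9A by 1 protein-coding gene, and WNT9A had 12607 units with hiNOS and 11501 units with GFP. Both were called absent on both arrays. Thus WNT3 differed between the lines while its neighbour was called absent on both arrays.

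Promoter sequences are given for WNT3 and WNT3A, the pair that held the paralog past 2-fold and a partner at the dim end. They are the 250 bases before the gene start in RefSeq on GRCh38.p14, written 5′ to 3′ on the strand of the gene, with CG dinucleotides in capitals. WNT3 is chr17:46818693-46818942 on the minus strand, and WNT3A is chr1:228006748-228006997 on the plus strand.
WNT3: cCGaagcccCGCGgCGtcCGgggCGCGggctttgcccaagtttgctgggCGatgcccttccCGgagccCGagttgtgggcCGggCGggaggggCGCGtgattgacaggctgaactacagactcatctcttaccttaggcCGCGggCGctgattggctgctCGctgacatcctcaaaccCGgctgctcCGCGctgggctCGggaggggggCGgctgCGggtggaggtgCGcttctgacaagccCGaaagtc
WNT3A: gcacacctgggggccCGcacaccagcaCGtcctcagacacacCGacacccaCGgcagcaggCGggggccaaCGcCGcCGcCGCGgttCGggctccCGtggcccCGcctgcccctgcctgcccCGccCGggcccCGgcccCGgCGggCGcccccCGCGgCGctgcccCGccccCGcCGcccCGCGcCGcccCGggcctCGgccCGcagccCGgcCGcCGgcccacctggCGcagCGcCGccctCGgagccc
WNT3 has 26 CG dinucleotides in this stretch with a G and C content of 68.8%, and WNT3A has 38 with 86.0%. The array measured RNA only, so nothing in these data bears on methylation or binding at either promoter.

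The RefSeq promoter table held 8 of the 10 genes, with WNT7B and WNT10B not matched and 2 starts for WNT2B. Over the full windows of 250 bases before to 50 after the start, WNT8A and WNT8B had 4 CG dinucleotides each, against a median of 14 over 35116 promoters of that length. The other windows had 18 to 49. Among the genes near the ceiling, WNT2 had 43 and WNT10A 30, beside the 4 of each WNT8 gene. Among the genes called absent, WNT3A had 49, WNT7A 40, and the 2 starts of WNT2B 18 and 43. The TCF/LEF core CTTTGA, searched on both strands, occurred in 0 of the 9 windows and in 12.9% of all promoters. That count says only that these letters are not in these windows.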

How the data were processed

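Total RNA of 1 hiNOS and 1 GFP line of SW480 was converted to biotin-labelled cRNA, per the labels' protocols. Density was read with GEArray Expression Analysis Suite 2.0, per the series text. Per the file headers, the main deposited intensity is an average density for each of the 128 spots, with neither background removal nor normalization. Present and absent calls came from the authors' software, per the file headers, at 1.5 times a mean of local backgrounds. A second deposited intensity table, on a linear scale, holds density less the blanks over an interquartile mean. The authors' list of ratios past 2-fold, as deposited, was treated as a score, because ratios can be negative.

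Here the mean of the 2 blanks was subtracted on each array, the 3 GAPDH and ACTB spots set the scale, and log2 ratios (hiNOS over GFP) were computed for the 59 genes present on at least 1 array. A gene absent on 1 array was taken at its bound. The bound sets the bright value against the lowest present gene on the dim array, or against the gene's own dim value if that is higher. With 1 array per group no test was run. All 10 paralogs are named, and for each one present and below the ceiling the 2 nearest genes outside the pairs. The rule that picks the members uses gene symbols only, but members, lists and settings were chosen with earlier results of these data known. The arithmetic of the rules was checked on simulated arrays with known ratios. Those arrays had no spot noise, no differing blanks and no ceiling, so the check does not show how accurate the folds are. RefSeq accessions named 112 of the 113 genes, and position 51 is named FZD5 after its accession. Alternatives used Python 3.11.15 and limma 3.58.1 (normexp, offset 50). The precision is limited by the number of arrays.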

Additional observations from a re-analysis of the deposited data

How the results depend on the processing

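The 6 paralogs called present were also the count by 1.5 times the blank mean (45.1% of all genes with hiNOS, 46% with GFP). The authors' call uses the same factor of 1.5 on local backgrounds, so this match is close to built in. By 3 SDs over the blank mean it was 8 with hiNOS and 9 with GFP (56.6% and 64.6% of all genes), and by the brightest negative control 9 on each array (62.8% with hiNOS, 72.6% with GFP). The count of 2-fold lower paralogs, 1 (WNT3) after blank subtraction, became 0 with density (1.46-fold lower), the median negative control (1.99), normexp (1.88), the median gene (1.68), quantile normalization (1.78), the deposited values (1.93) and the dimmer blank (1.94), the last chosen after the data were seen. The count of 2-fold higher paralogs was 0 under every setting run. Over all genes, 3 higher and 6 lower became 0 and 0 with density, 1 and 4 with normexp, 3 and 2 with the median gene, 5 and 3 with quantile normalization, 2 and 3 for the 45 genes present on both arrays (fewer genes tested), 10 and 15 without the filter on dim spots (more genes, no bounds) and 6 and 10 with a 1.5-fold rule. A constant background pulls a ratio towards 1 by construction, and for the other settings the cause was not tested. Scaling to the median gene shifted present genes to a median log2 ratio of 0.26. No paired analysis was possible because the design has 1 array per line, and no replicate could be left out. Signal over background limits WNT2B, WNT3A, WNT7A and WNT10B, and a possible ceiling limits WNT2, WNT8A, WNT8B and WNT10A. The same possible ceiling limits the GAPDH and ACTB spots, and so every setting that scales to them.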
